A study of Mus musculus with 8 samples.

Results

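The 9 transcription factors described here, Tbx21, Eomes, Gata3, Foxp3, Tcf7, Tox, Bcl6, Runx3 and Ikzf2, direct T cells into their lineages and states. They were chosen by name, as all mouse probes of the array annotated with 1 of these symbols, and no measured value entered the choice. This gave 21 of 56567 probes, or 9 of 37058 annotated gene names. CT26 is a colon carcinoma line of BALB/c mice, and the tumors had grown subcutaneously from 500000 implanted cells before 2 weeks of treatment. Vehicle mice received no active agent. TP-16 mice received TP-16 (named BY001 in the labels), a blocker of the prostaglandin E2 receptor EP4, by mouth at 75 mg/kg every day. Anti-PD-1 mice received an antibody against the inhibitory receptor PD-1, 50 µg into the peritoneum 2 times a week, and combination mice received both agents. RNA came from the tumors, and the sources do not say whether a sample was 1 tumor or a pool. RNA of 2 samples per group was measured on 8 one-colour Agilent arrays.

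T-bet (Tbx21) and Eomesodermin are related T-box factors that drive interferon-γ production and cytotoxic function in CD8+ T cells, type 1 helper cells and NK cells, and Runx3 sets the CD8+ lineage. GATA3 directs type 2 helper cells and also acts in other lymphoid and epithelial cells, Foxp3 and Helios (Ikzf2) mark regulatory T cells, and Bcl6 directs follicular helper cells and is used by many myeloid and stromal cells. TCF-1 (Tcf7) maintains naive, memory and stem-like T cells, and TOX drives the exhausted state that T cells enter under lasting antigen exposure. In bulk tumor RNA, a change in the number of cells that hold a transcript and a change in its amount per cell cannot be told apart.

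Values are log2 intensities relative to the 75th percentile of the array, so a value of 0 equals that percentile, and levels of different probes are not compared. Tests were limited to probes whose signal stood well above background on each array of some group, a condition met by 15 of the 21 probes and by at least 1 probe of every gene. The other 6 probes were above background on 0 arrays. Each gene is represented by its brightest tested probe unless stated. A gene was called if it differed at least 2-fold and had a limma p of no more than 0.05 after Benjamini-Hochberg adjustment over all 31912 tested probes, and the threshold of the study's methods, a fold of 2 with an unadjusted p of at most 0.05, is given beside it. The probe position is given in the mm9 build. Whether a probe lies in an exon or a UTR was not analysed here.

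The 8 arrays shared 1 slide and 1 scan. The 75th percentile of intensity ran from 371.1 to 733.6, and 51.4% to 59.7% of probes were well above background, with 0 saturated. Vehicle replicates lay farthest apart (correlation 0.978), and the correlation in the other groups was 0.988 to 0.991. On the slide, samples given the antibody occupied a different row from those without it. Slide row and antibody, and slide column and TP-16, cannot be told apart. The labels number the replicates without naming separate animals, so p-values measure only the spread between these samples.

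Under the combination, 5 of the 9 factors were called, all higher than in vehicle: Tbx21, Gata3, Tcf7, Tox and Ikzf2. Of all 21497 genes tested, with 1 probe each, 14.2% were called in either direction and 5.59% were called higher. Eomes joined them at the methods' threshold, which made 6 of 9, against 17.1% of all genes in either direction and 6.65% higher. This count uses limma's p, and with the methods' t-test in its place Tcf7 alone passed, 1 of the 9, beside 2255 of all 31912 probes. The median log2 fold change was 1.30 over the 9 factors and -0.24 over all genes. Foxp3, Bcl6 and Runx3 were not called. The Tcf7 probe was dim on both vehicle arrays and entered the tests only through treated groups, so its calls are not support. That of Tox was dim on vehicle replicate 1. With only probes above background on all 8 arrays tested, which leaves out both genes, Tbx21, Gata3 and Ikzf2 were called. Of all 26683 such probes, 2968 were called. Over all tested probes, 4004 were called, 1620 of them higher, whereas quantile normalization gave 3363 calls with 2312 higher. Neither agent alone gave a call among the factors at adjusted p. With TP-16, Tbx21 and Tox passed the methods' threshold, and Tcf7 did so with anti-PD-1. The Tox and Tcf7 fits use dim vehicle signals. For Tcf7 with anti-PD-1 only a bound of at least 1.38-fold holds, which is under a fold of 2.

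**Figure D1:**
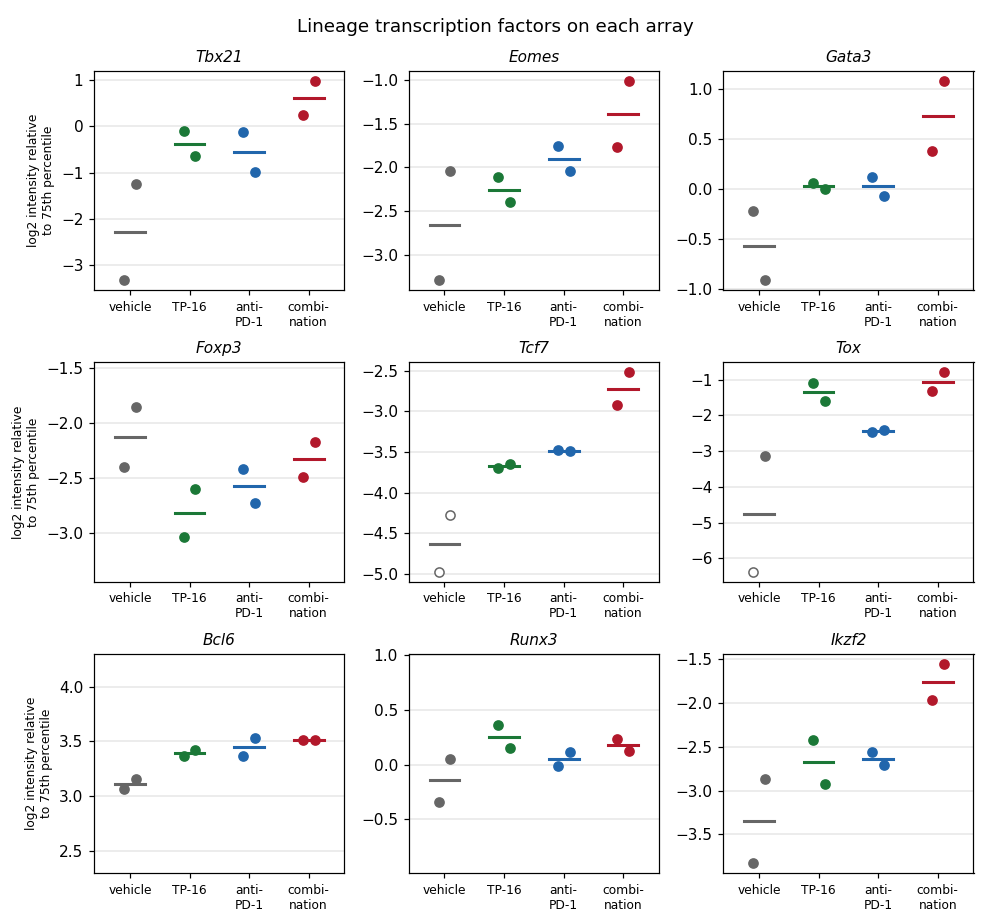
Level of each factor on every array, as log2 intensity relative to the 75th percentile of the array, for the probe that stands for the gene. Points are arrays (open where not well above background), bars are means of 2 arrays, and axis ranges differ between panels. The combination arrays overlap the vehicle arrays for Foxp3 and lie above them for the other probes shown. The share of all genes that lie apart in this way was not counted. The other tested probes of Bcl6 and Runx3, not shown, overlap vehicle.

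Promoter sequence from RefSeq (GRCm38.p6) is shown for 3 of the factors, Tbx21, which rose under the combination, Runx3, its partner in CD8+ T cells, which was not called, and Foxp3, the only one of the 9 with a lower mean under each treatment than in vehicle. Of the 9 genes, 7 matched an entry by symbol, and 5 had an entry that lay at least 200 bases outside the gene. Each line gives the 250 bases before the annotated start, read 5′ to 3′ on the strand of the gene, which is minus at chr11:97115332-97115581 for Tbx21, plus at chr4:135120395-135120644 for Runx3 and plus at chrX:7579426-7579675 for Foxp3. Capitals mark matches on either strand to 1 of 6 short motifs, the T-box letters GGTGTGA, the GATA letters AGATAA, the Runx letters TGTGGT, the STAT letters TTCNNNGAA, the cyclic AMP response element TGACGTCA and the TATA letters TATAAA.
Tbx21: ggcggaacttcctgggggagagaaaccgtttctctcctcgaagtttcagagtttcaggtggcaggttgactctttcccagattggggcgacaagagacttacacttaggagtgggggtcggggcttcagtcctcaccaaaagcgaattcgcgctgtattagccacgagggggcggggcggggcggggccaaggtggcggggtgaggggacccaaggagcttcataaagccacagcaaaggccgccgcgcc
Runx3: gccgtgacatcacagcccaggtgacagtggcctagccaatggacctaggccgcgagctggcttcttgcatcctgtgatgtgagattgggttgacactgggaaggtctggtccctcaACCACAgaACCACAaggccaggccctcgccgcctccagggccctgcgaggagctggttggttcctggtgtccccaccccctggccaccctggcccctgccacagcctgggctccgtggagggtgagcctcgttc
Foxp3: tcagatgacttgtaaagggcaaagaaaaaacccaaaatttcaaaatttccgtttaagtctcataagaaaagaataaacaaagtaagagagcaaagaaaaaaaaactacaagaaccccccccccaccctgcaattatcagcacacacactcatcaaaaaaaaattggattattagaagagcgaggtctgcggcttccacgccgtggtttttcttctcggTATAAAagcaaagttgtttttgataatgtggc
The Tbx21 window held 0 of the 6 motifs, the Runx3 window held 2 separate Runx matches, and the Foxp3 window held 1 TATA match. Of the 32851 RefSeq windows of this length, 14.0% held the Runx letters and 12.4% the TATA letters. The T-box letters were in 3.33% of them, the GATA letters in 9.99%, the STAT letters in 7.02% and the cyclic AMP element in 1.55%. These matches describe the letters only, and no binding was measured.

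Tbx21, the gene of T-bet, was higher in every treated sample than in both vehicle samples. Its probe on chromosome 11 (96959417 to 96959476, minus strand, transcript NM_019507) read -3.32 and -1.25 on the vehicle arrays and 0.25 and 0.98 on the combination arrays. It read -0.11 and -0.64 with TP-16, and -0.12 and -0.99 with anti-PD-1. The single-agent arrays thus filled the range between vehicle and combination, and the 2 vehicle arrays stood farther apart than those of any other group. Under the combination Tbx21 rose by a log2 fold change of 2.90, or 7.45-fold (standard error 0.71, limma adjusted p 0.0304). TP-16 gave 1.91 (limma p 0.0378, adjusted p 0.171) and anti-PD-1 1.73 (limma p 0.0530, adjusted p 0.349). Without vehicle replicate 1, the lower of the 2 controls, the combination effect was 1.86 (limma adjusted p 0.0508).

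Eomes, the other T-box factor, was less affected. Its probe on chromosome 9 (118394425 to 118394484, plus strand) read -3.29 and -2.04 in vehicle, -2.11 and -2.40 with TP-16, -1.76 and -2.04 with anti-PD-1, and -1.77 and -1.01 under the combination. Both single-agent groups overlapped vehicle and only the combination arrays lay clear of it. The combination effect of 1.28 (95% confidence interval 0.16 to 2.39, and 0.60 after normexp background correction) passed the methods' threshold (limma p 0.0317) but not the adjusted one (0.0787). It was 0.65 without vehicle replicate 1 and 1.90 without vehicle replicate 2 (limma adjusted p 0.219 and 0.0304), so 1 control sample set whether it was called. The other Eomes probe, of transcript NM_001164789, was not well above background on any array.

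Runx3 was read by a probe on chromosome 4 (134732807 to 134732866, plus strand) at -0.34 and 0.05 in vehicle, 0.36 and 0.15 with TP-16, -0.01 and 0.11 with anti-PD-1, and 0.23 and 0.12 under the combination. The arrays of the 4 groups thus lay close together, with vehicle replicate 1 lowest. The combination effect was 0.32, with a 95% confidence interval of -0.09 to 0.73 that leaves out a 2-fold rise (limma adjusted p 0.188). The other tested Runx3 probe, which read the same transcript NM_019732 at a dimmer signal, gave -0.28 (adjusted p 0.441).

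Gata3 rose under the combination. The probe on chromosome 2 (9779495 to 9779554, minus strand) read -0.22 and -0.91 in vehicle, 0.06 and 0.00 with TP-16, 0.12 and -0.07 with anti-PD-1, and 0.38 and 1.08 under the combination. Here vehicle replicate 2 was the lowest array, in contrast to Tbx21, Tox and Ikzf2, for which replicate 1 was lowest. The combination effect was 1.30, or 2.46-fold (standard error 0.31, limma adjusted p 0.0275), and both single agents gave about 1.51-fold (adjusted p 0.271 with TP-16, 0.416 with the antibody). Without vehicle replicate 2 the effect was 0.95 (limma adjusted p 0.0824), and without combination replicate 2 it was also 0.95 (0.134), both below a 2-fold rise.

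Bcl6 differed little in size but evenly. Its brighter probe, on chromosome 16 (23965160 to 23965219, minus strand), read 3.07 and 3.16 in vehicle and 3.51 on both combination arrays, with 3.37 and 3.42 for TP-16 and 3.37 and 3.53 for anti-PD-1. All 6 treated arrays lay above both vehicle arrays. The combination effect of 0.40, or 1.32-fold, had a limma adjusted p of 0.0388 but stayed under the fold of 2. The dimmer probe, of transcript ENSMUST00000135352, gave -0.11 (adjusted p 0.786), so the direction differed between the 2 probes.

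Foxp3, the defining factor of regulatory T cells, did not follow the others. Its probe on chromosome X (7172301 to 7172360, plus strand) read -2.40 and -1.85 in vehicle, -3.04 and -2.60 with TP-16, -2.42 and -2.73 with anti-PD-1, and -2.49 and -2.17 under the combination. The 4 single-agent arrays lay below both vehicle arrays, narrowly so for anti-PD-1 replicate 1, and the combination arrays overlapped them. The log2 difference from vehicle was -0.70 for TP-16 (limma p 0.0371, adjusted p 0.170), -0.46 for anti-PD-1 (adjusted p 0.444) and -0.21 for the combination (95% confidence interval -0.85 to 0.44, adjusted p 0.570). The interval for the combination leaves out a 2-fold change in either direction. The combination lay above the sum of the single effects by 0.95 (limma p 0.0425, adjusted p 0.662), which did not pass the adjusted threshold. The sign of the combination value turned to 0.07 without vehicle replicate 2.

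Ikzf2, the gene of Helios, rose under the combination although Foxp3 was not called. The probe on chromosome 1 (69578252 to 69578311, minus strand) read -3.83 and -2.87 in vehicle, -2.42 and -2.93 with TP-16, -2.56 and -2.71 with anti-PD-1, and -1.97 and -1.55 under the combination. The combination arrays were above the 6 others, while 1 TP-16 array fell just under the higher vehicle array. The effect was 1.59, or 3.01-fold (standard error 0.36, limma adjusted p 0.0240). After normexp background correction it was 0.59, under a fold of 2, and was not called. A dimmer Ikzf2 probe of another transcript, above background on 5 arrays, gave 0.75 (adjusted p 0.356).

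Tcf7, the gene of TCF-1, was read by 2 tested probes that differed. The brightest was not well above background on either vehicle array and was so on all 6 treated arrays. This probe on chromosome 11 (52066008 to 52066067, minus strand) read -4.97 and -4.28 in vehicle, -3.70 and -3.65 with TP-16, -3.48 and -3.49 with anti-PD-1, and -2.92 and -2.52 under the combination. The 4 groups did not overlap, and replicates of the treated groups lay close to each other. Because vehicle was dim, the change is a bound, taken against the lowest signal well above background on each vehicle array. It was at least 2.34-fold higher under the combination (limma adjusted p 0.0102), at least 1.38-fold with anti-PD-1 (0.241) and at least 1.21-fold with TP-16 (0.107). These p-values come from the fit on the dim vehicle signals and do not test the bounds. The probe passed the filter only through treated groups. Another tested probe, on the same chromosome (52066114 to 52066173), was not called. It gave 0.63 for the combination (limma adjusted p 0.231) and was not well above background on vehicle replicate 1 and on both anti-PD-1 arrays, so no direction is given for the antibody. After normexp background correction, the brightest probe gave 0.28 for the combination and was not called.

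Tox rose under the combination, with the widest error of the 9 factors. The brightest probe, on chromosome 4 (6614755 to 6614814, minus strand), read -6.37 and -3.13 in vehicle, of which only replicate 2 was well above background, and -1.32 and -0.79 under the combination. It read -1.08 and -1.59 with TP-16, and -2.46 and -2.40 with anti-PD-1, so the TP-16 arrays overlapped the combination arrays and the anti-PD-1 arrays lay below both groups. The fitted log2 effects, which use the dim signal of vehicle replicate 1 and so are not exact sizes, were 3.70 for the combination (standard error 0.98, limma adjusted p 0.0364), 3.41 for TP-16 (p 0.0134, adjusted p 0.116) and 2.32 for anti-PD-1 (p 0.0566, adjusted p 0.356). The combination effect was 2.07 without vehicle replicate 1, and 1.49 after normexp background correction (limma adjusted p 0.00483). It was not called without the filter on dim probes (limma adjusted p 0.0527) or with only the 2 groups fitted (0.112). Nor was it called after Benjamini-Hochberg adjustment of the methods' t-test (0.303). Leaving out most single arrays also lost the call. A second probe, dim on both vehicle arrays, was at least 3.31-fold higher under the combination (adjusted p 0.0161) and at least 2.81-fold with TP-16 (0.0931). Another, above background on 4 arrays, gave at least 1.22-fold (0.0827), and 2 further probes were not above background on any array. The 2 probes with bounds passed the filter only through treated groups. Their p-values use dim vehicle signals and are not read as support for the call.

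**Figure D2:**
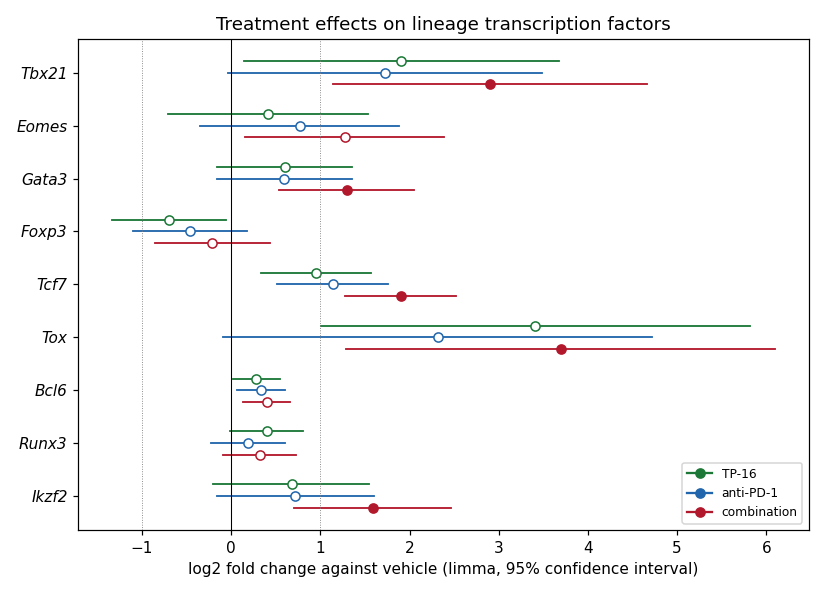
Log2 fold change of each factor against vehicle in limma, with 95% confidence intervals, for the 3 treatments. Filled points passed a fold of 2 and the adjusted p, and dotted lines mark a fold of 2. The 5 filled points are the combination effects of Tbx21, Gata3, Tcf7, Tox and Ikzf2, and the points of Foxp3 lie below 0 for all 3 treatments. The points of Tcf7 and Tox are fitted values that use dim signals on 2 and 1 of the vehicle arrays, and for Tcf7 only the bound in the text holds.

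For TP-16 against vehicle, 0 of the 9 factors were called at adjusted p (0.0558% of all genes) and 2 at the methods' threshold (6.67% of all genes). For anti-PD-1, 0 were called (0.0744% of all genes) and 1 at the methods' threshold (4.14%). The median log2 difference over the factors was 0.60 with TP-16 and 0.72 with the antibody, against -0.15 and -0.10 over all genes. These comparisons and that of the combination share the 2 vehicle arrays. The mean of the combination was the highest of the 4 groups for 7 factors, that of TP-16 for Runx3, and that of vehicle for Foxp3.

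The combination was also set against each agent alone. Against TP-16, 0 of the 9 factors passed the adjusted threshold (limma, 0% of all genes) or the methods' threshold (4.89% of all genes), and 2 had an unadjusted p of at most 0.05 at a smaller fold, Tcf7 (0.95, p 0.00950, adjusted p 0.141) and Ikzf2 (0.91, p 0.0436, adjusted p 0.211), as had 7131 of all 31912 probes. Against anti-PD-1, 0 passed the adjusted threshold (0.0140% of all genes) or the methods' threshold (4.72% of all genes), and among the brightest probes Tcf7 alone had an unadjusted p of at most 0.05 (0.76, p 0.0238, adjusted p 0.138), as had 8348 of all probes. Of the dimmer probes, 1 of Tcf7 and 2 of Tox did pass the methods' threshold against anti-PD-1 (limma adjusted p 0.147, 0.166 and 0.162). The Tcf7 probe was at least 1.78-fold higher and 1 Tox probe at least 1.37-fold higher, both being dim on the 2 anti-PD-1 arrays, and the other Tox probe gave a log2 difference of 1.07. The difference between combination and anti-PD-1 in Tbx21, 1.17, had a 95% confidence interval of -0.59 to 2.93, so a wide range of differences remains compatible with these arrays. A departure from additivity, that is, a combined effect unlike the sum of the single effects, passed for 0 factors at adjusted p (limma, 0% of all genes) and at the methods' threshold (3.28% of all genes). Foxp3, given above, was the only factor with an unadjusted p of at most 0.05 there, as had 2336 of all 31912 probes.

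The 5 calls depended on single arrays. In limma, 0 factors were called without combination replicate 2, 3 of them then passing the methods' threshold (Tbx21, Tcf7 and Ikzf2), and 5 reached an unadjusted p of at most 0.05 at any fold. Of all 31912 probes, the same omission left 0 calls, 2999 probes past the methods' threshold, and 9425 past the same p with no limit on fold. Leaving out any other 1 array also lost some of the 5 calls. Tcf7 kept its call in those fits, but its probe was dim on both vehicle arrays and passed the filter through the treated groups. Nothing about stability is therefore read from Tcf7. The log2 effects of the 5 called factors were above 0 in all of these fits.

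**Figure D3:**
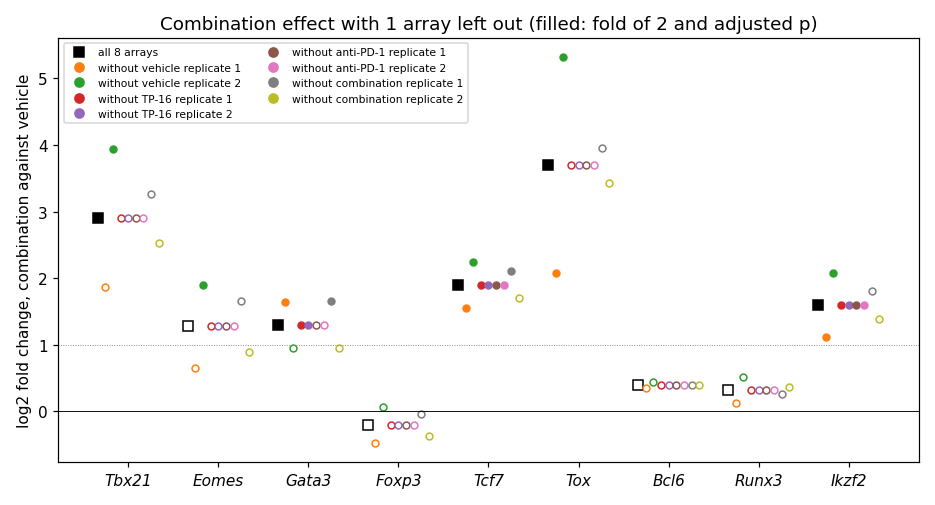
Log2 fold change of each factor between combination and vehicle with all 8 arrays (squares) and with 1 array left out (circles). Filled symbols passed a fold of 2 and the adjusted p, and the dotted line marks a fold of 2. Without combination replicate 2 no symbol is filled, and the highest circle of Tox is set against vehicle replicate 1 alone, where its probe was not well above background, so its height is not a measured difference. The same holds for all symbols of Tcf7, which was dim on both vehicle arrays, and the other Tox symbols, except the circle without vehicle replicate 1, use that dim signal in part.

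Several T-cell markers were also higher under the combination. Of 12 T-cell markers, 7 were called higher under the combination (5.59% of all genes), with a median log2 fold change of 2.80. Their summed linear level, as a multiple of the 75th percentile, was 9.21 to 21.8 in vehicle, 29.0 to 36.1 with TP-16, 28.2 to 35.7 with anti-PD-1 and 43.5 to 73.4 under the combination, so groups with single agents overlapped and vehicle and combination lay apart. Cd8a, the CD8 co-receptor, rose by 3.76 (limma adjusted p 0.0477, 1 of 2 vehicle arrays above background), whereas Cd4 gave 0.41 (0.0881) and Cd247, the CD3 zeta chain, -0.27 (0.193). The Cd8a value uses a dim vehicle signal and is not an exact size. Of 8 NK-cell markers, 3 were called higher, and their summed level was 8.70 to 37.9 in vehicle, 37.5 to 37.8 with TP-16, 38.5 to 56.6 with anti-PD-1 and 37.7 to 41.2 under the combination, so vehicle replicate 1 alone stood low. Each T-cell and NK-cell marker was above background on at least 1 array. The part of the marker levels in the changes of the factors was not tested.

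Each factor was also set against the mean of the 11 T-cell markers that were above background on all 8 arrays. This mean was -1.04 and 0.50 in vehicle, 1.32 and 0.98 with TP-16, 1.33 and 1.00 with anti-PD-1, and 1.64 and 2.33 under the combination. Tbx21 minus this mean was -2.28 and -1.75 in vehicle and -1.39 and -1.35 under the combination, a narrow range on a log2 scale over which Tbx21 itself spanned -3.32 to 0.98. Foxp3 minus the marker mean was -1.35 and -2.35 in vehicle, and -3.59 to -4.50 on the 6 treated arrays. All treated arrays thus lay at least 1 log2 unit below both vehicle arrays for Foxp3. The marker mean itself was higher on every treated array than on both vehicle arrays. A factor that rose less than the markers therefore falls here by construction, and no conclusion is drawn from such a fall. This was not particular to Foxp3, since Eomes, Bcl6, Runx3 and Ikzf2 minus the marker mean were also lower on all 6 treated arrays than on both vehicle arrays. Runx3 went from 0.71 and -0.45 in vehicle to -1.41 and -2.21 under the combination, Bcl6 from 4.12 and 2.65 to 1.87 and 1.18, Eomes from -2.25 and -2.54 to -3.41 and -3.34, and Ikzf2 from -2.79 and -3.38 to -3.61 and -3.88. Tbx21, Gata3, Tcf7 and Tox minus the marker mean showed no such fall on all treated arrays. Tox read -5.33 and -3.63 in vehicle, the first from a dim signal, and -2.96 and -3.12 under the combination, with anti-PD-1 replicate 1 at -3.80 inside the vehicle range. These differences were described without a test.

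**Figure D4:**
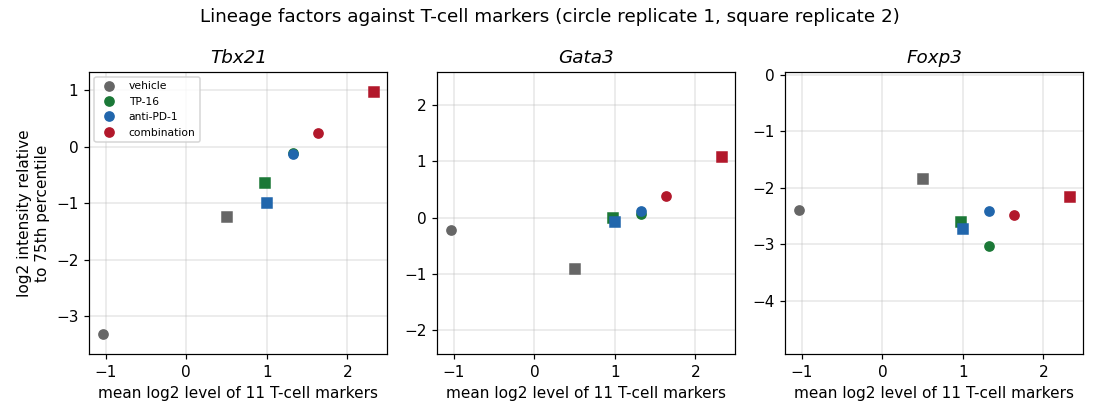
Level of Tbx21, Gata3 and Foxp3 on each array (vertical axis, log2 relative to the 75th percentile) against the mean log2 level of 11 T-cell markers on the same array (horizontal axis), with the same vertical span in each panel. Tbx21 runs along the markers from vehicle replicate 1 at -3.32 to combination replicate 2 at 0.98, whereas Foxp3 stays between -3.04 and -1.85. The first TP-16 and anti-PD-1 replicates coincide for Tbx21.

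Across the 8 arrays, and as a description in which the points share treatments, the 3 genes most like Tbx21 of 12999 were Lck (Pearson r 0.997), the kinase next to the T-cell receptor, Ptprcap (0.996), a partner of CD45, and Cd3e (0.994), a chain of CD3. Without vehicle replicate 1 these were 0.990, 0.988 and 0.982 over 7 arrays. Ikzf2 was most like Trpm2 (0.999), a cation channel, Fam49a (0.996, Cyria in RefSeq) and the kinase gene Ptk2b (0.996). Eomes was most like Fcer1g (0.991), an Fc receptor subunit, Lpxn (0.988) and Osbpl7 (0.986), and Gata3 like Rhobtb1 (0.976) and Ncam1 (0.975). Bcl6 was most like Ear1 (0.990), a ribonuclease of eosinophils, Krt80 (0.981) and Csrnp1 (0.979). For Runx3 the leading genes were Slit3 (0.961), Ints1 (0.948) and Tmppe (0.940), of which Tmppe was at 0.796 without vehicle replicate 1. Foxp3 had the lowest leading value, with Lhx8 (0.940), Cecr5 (0.936, Hdhd5 in RefSeq) and Pxn (0.929), and no T-cell gene was among its 3. Tcf7 and Tox were left out here because their brightest probes were dim in vehicle.

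Among the factors themselves, Tbx21 correlated with Ikzf2 at 0.957 and with Eomes at 0.922. With Tox it was 0.948 and with Tcf7 0.938, both including vehicle arrays on which those probes were dim, and 0.816 and 0.886 without vehicle replicate 1. Its correlation with Foxp3 was -0.0870. Without vehicle replicate 1, Tbx21 and Eomes gave 0.789, Tbx21 and Gata3 went from 0.666 to 0.929, and Tbx21 and Runx3 went from 0.772 to 0.247. The place of Gata3 and Runx3 relative to T-bet thus depended on 1 control array.

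Other transcription regulators of T cells were read from a list of 37 genes, of which 35 were tested. Under the combination 11 were called, all higher, where 5.59% of all genes were called higher. The list median was 0.43 against -0.24 over all genes. Irf4, which T cells induce on receptor signaling, was dim in vehicle and at least 4.80-fold higher (limma adjusted p 0.0169). Satb1, a chromatin organizer of T cells, rose by 2.37 (0.0149). Bach2, a restrainer of effector differentiation, was also dim in vehicle and above background on 4 arrays. It was at least 1.29-fold higher (0.0102), a bound under the fold of 2. For Irf4 and Bach2 the call and the p use the dim vehicle signals. With TP-16 and anti-PD-1, 0 genes of this list were called in limma, with 7 and 3 at the methods' threshold. Of all genes, 6.67% and 4.14% passed that threshold, in either direction.

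Genes of the programs that these factors direct were also read. The counts of these lists for the combination stand beside 5.59% of all genes called higher and 14.2% in either direction. In the type 1 and cytotoxic list (Tbx21, Eomes, Runx3), 10 of 15 were called, all higher, with a median of 2.08. Ifng, the signature cytokine of type 1 cells, rose by 4.06 (limma adjusted p 0.0276), the chemokine gene Ccl5 by 4.05 (0.0102), the chemokine receptor gene Cxcr3 by 2.99 (0.0102) and Il18r1, of the interleukin-18 receptor, by 2.76 (0.0167). Gzma, Prf1, Klrg1, Il12rb2 and Il18rap were not called.

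Of 10 genes in the type 2 list (Gata3), 5 were tested, and Il4 and Il5, which encode the type 2 cytokines, were not among them. Il10, an inhibitory cytokine, was called higher (dim in vehicle, at least 1.70-fold, limma adjusted p 0.0181). Its bound lies under the fold of 2, and its call and p use the dim vehicle signals. Areg, an epidermal growth factor receptor ligand that many cells make, fell by 2.37 (limma adjusted p 0.0114). Il13 gave -0.92 (adjusted p 0.297), and the list median was 0.06. In the type 17 list, 3 of 7 genes were tested and Il22 was called lower (-1.45, adjusted p 0.0149, above background on 1 of 2 combination arrays).

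Genes of the regulatory T-cell list (Foxp3, Ikzf2) were called higher in 8 of 15 cases, with a median of 1.29, although Foxp3 itself was not. The 8 include Il10, which was dim in vehicle. Icos, a costimulatory receptor, rose by 3.12 (limma adjusted p 0.0204), Izumo1r, the folate receptor 4 of regulatory cells, by 2.27 (0.0145) and Entpd1, the ectoenzyme CD39, by 2.03 (0.0133). These genes are also expressed by activated conventional T cells, and Entpd1 by myeloid and endothelial cells. Ccr8 gave 0.51 (adjusted p 0.256) and Ctla4 1.74 (adjusted p 0.173).

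In the exhaustion list (Tox), 9 of 10 genes were tested, 5 were called higher and 1 lower, with a median of 1.74. Cxcl13 rose by 3.33 (limma adjusted p 0.0215), the checkpoint receptor gene Lag3 by 3.22 (0.0397, above background on 1 of 2 vehicle arrays) and Pdcd1, the gene of PD-1, by 2.25 (0.0299). Cd244, a receptor of NK cells and T cells, fell by 1.43 (0.0467). In the follicular helper list (Bcl6), 4 of 7 tested genes were called, all higher, with a median of 2.19, among them Btla (3.04, 0.0107, above background on 1 of 2 vehicle arrays) and Sh2d1a (2.19, 0.0431). Icos and Pdcd1 are members of this list too.

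In the naive and memory list (Tcf7), 3 of 10 genes were called, all higher, with a median of 0.93. Slamf6, a receptor on stem-like T cells, rose by 2.63 (limma adjusted p 0.0116, above background on 1 of 2 vehicle arrays), Il7r, the interleukin-7 receptor, by 2.24 (0.0109) and Ccr7, the lymph node homing receptor, by 1.82 (0.0102). Lef1, the nearest relative of Tcf7, gave -0.69 (adjusted p 0.0154), under a fold of 2. For the single agents and for the combination against each of them, 0 genes of these lists were called in limma at adjusted p. At the methods' threshold, 7 of 15 genes of the type 1 list were higher with TP-16 and 7 with anti-PD-1. Of all genes, 6.67% and 4.14% passed it, in either direction. In the same order, 3 and 3 of 7 follicular helper genes, 2 and 4 of 10 naive and memory genes, 2 and 4 of 15 regulatory T-cell genes, and 2 and 1 of 9 exhaustion genes were higher. There, 1 exhaustion gene and 1 type 2 gene were lower with TP-16, 1 type 17 gene was lower with each agent, and 0 type 2 or type 17 genes were higher. As in the other lists, without combination replicate 2 the calls were 0.

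Markers of the other cell types of a tumor were also read. Under the combination, 3 of 8 fibroblast markers and 3 of 8 macrophage and monocyte markers were called higher. Lower calls were 3 of 6 tested B-cell markers and 2 of 7 tested neutrophil markers. Of all genes tested, 5.59% were called higher and 14.2% in either direction. Of the tested markers of endothelial cells (8), skeletal muscle (8), and keratinocytes and hair follicle (6), 0 were called. At the methods' threshold they were 1, 1 and 0, beside 17.1% of all genes in either direction. The summed fibroblast level was 259 to 294 in vehicle and 487 to 521 under the combination, and that of neutrophils 106 to 116 and 56.0 to 70.2. The summed macrophage level was 571 to 596 in vehicle and 502 to 523 under the combination, against the direction of its 3 calls (Adgre1, Cd68 and Fcgr1). Keratinocyte markers reached 44.1 and 44.9 on 1 TP-16 and 1 anti-PD-1 array, against 8.46 to 10.6 on the others. The part of these levels in the results for Gata3, Bcl6 and Runx3, which such cells also express, was not tested.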

How the data were processed

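Per the file headers, the authors' scanner software (Agilent Feature Extraction 10.7.1.1) wrote background-subtracted, detrended intensities, which were deposited. A deposited file of log2 values, made in GeneSpring by the methods, has nearly the same distribution on every array, and its normalization is not named. The methods name TRIzol for RNA, the labels a column kit. Here, control spots and 38 probes with outlier marks were left out, spots of a probe were averaged, and log2 intensity minus the 75th percentile of each array was used. Tests covered the 31912 of 56567 probes that stood well above background on each array of some group. All 4 groups entered a single limma 3.58.1 fit (R 4.3.3) with 4 residual degrees of freedom. The number of arrays limits the precision. Calculations were tested on simulated data. Figures used Python 3.11.15 and matplotlib 3.10.9.

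Named in the text are all 9 factors with every probe, up to 4 called genes of each list by size, and the 3 genes most like each factor among symbols above background on all 8 arrays, leaving out clone and model names. Some genes that this rule names are not reported here. Other list genes were chosen after their values were seen. Factors and lists (8 lists of T-cell genes, some shared between lists, and 9 marker lists) were chosen with earlier results of these data known. All 9 factors matched their RefSeq symbol by accession. No column of another series was found.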

Additional observations from a re-analysis of the deposited data

How the results depend on the processing

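With 2 arrays per group, precision was limited by the number of arrays, and Tcf7 and Tox by signals near background in vehicle. The median log2 difference of all probes between combination and vehicle was -0.20, against -0.01 after quantile normalization, -0.28 after normexp and -0.61 without a filter on dim probes. Of the values of the factors under alternatives, 878 kept their side of the threshold (40 uncalled ones with the other sign), 39 lost it, 6 gained it and 1 changed sign after passing the methods' threshold (not the adjusted one), Tcf7 for anti-PD-1, at -0.44 with its other tested probe, which was dim on both anti-PD-1 arrays and 1 vehicle array.

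Counts below are of the 9 factors. For the combination against vehicle, 5 were called, against 3 after normexp (Tcf7, at 0.28, and Ikzf2, at 0.59, were lost), 1 without the filter, 3 of 7 when only probes above background on all 8 arrays were tested, which leaves out Tcf7 and Tox, and 0 both when only the 2 groups compared were fitted and after Benjamini-Hochberg adjustment of the methods' t-test. At the methods' threshold 6 became 3 after normexp and 1 with the methods' t-test. For TP-16, 0 became 1 after quantile normalization, after normexp and with the authors' log2 values. At the methods' threshold, the 2 for TP-16 became 4 at a fold of 1.5, after quantile normalization and with the authors' log2 values, 1 of 7 on probes above background on all 8 arrays, where Tox was not tested, and 0 with only the 2 groups compared and with the methods' t-test. For anti-PD-1 the 1 became 3 after quantile normalization and with the authors' log2 values, and 0 with the methods' t-test. For the combination against TP-16, 0 became 2 at a fold of 1.5. Against anti-PD-1, 0 became 1 at a fold of 1.5, after normexp and with the methods' t-test, and 2 with only the 2 groups compared. For additivity, 0 became 1 at a fold of 1.5, which was Foxp3, above the sum of the single effects. After quantile normalization and with the authors' log2 values 0 also became 1. That was Tcf7, below the sum at -1.11, with a probe that was dim in vehicle. In the type 17 list, 1 became 0 after quantile normalization. The cause was not tested in the other cases.

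Leaving out 1 array at a time gave 0 to 5 calls for the combination, 0 to 1 for TP-16 and 0 to 1 for anti-PD-1, and at the methods' threshold 3 to 6, 0 to 5 and 0 to 5. It gave 0 to 2 at that threshold for the combination against TP-16, against anti-PD-1 and for additivity. Calls ran from 0 to 12 in the type 1 list, 0 to 2 in type 2, 0 to 1 in type 17, 0 to 6 in exhaustion, 0 to 5 in follicular helper, 0 to 5 in naive and memory, 0 to 11 in other regulators and 0 to 7 in regulatory T-cell genes. Lists without 1 array were an alternative chosen after seeing the data. Where 1 array of a group remained, it was assumed to vary like the other groups.

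The deviations of same-numbered samples correlated at -0.193 to 0.29 over the 6 pairs of groups, with both signs, so the numbers were not taken as pairing the samples. With a replicate block, 5 factors were called for the combination, as without it, and for TP-16 1 factor passed the methods' threshold. The slide could not be used as a block because there was 1.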
